A study of Mus musculus with 16 samples.

Results

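The change in accessible chromatin between late fetal life (E16.5, in days of embryonic age) and the day of birth (P0) was followed in mouse gonocytes, the germ cells that fill the cords of the testis before and just after birth. An E16.5 peak was called lost when no P0 peak overlapped it by at least 1 bp and kept when one did, and a P0 peak was called gained when no E16.5 peak overlapped it. This gave 11812 lost, 41875 kept and 25383 gained regions, 79070 in all. The 6 distinct peak lists of the series hold 302829 peaks, which merge into 107032 regions.

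The series applied ATAC-seq, which reads open chromatin from the places where a transposase can cut and tag DNA, to male germ cells from testes of Mvh-Venus transgenic mice, which carry a fluorescent reporter driven by a germ-cell gene. Its 16 samples form 8 groups of 2: *Morc1* (+/-) or *Morc1* (-/-) mice at E13.5, E16.5, P0 and P3. The E16.5 list used here is that of the 2 *Morc1* (+/-) samples. The lists filed for *Morc1* (+/-) and *Morc1* (-/-) mice at P0 were identical in every row, so the 4 samples of that stage give 1 list to which no genotype can be attached. The identical pair at P3 was treated in the same way. All E16.5 cells compared therefore lacked 1 copy of *Morc1*, the P0 cells may have lacked 1 or both, and stage and genotype cannot be told apart. Each group has 1 list, the lists carry no score, and read depth is unknown, so there was no replicate spread and no test. The 95% Wilson intervals given cover counting error over peaks only.

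After male sex determination, gonocytes stop dividing and stay in mitotic arrest until shortly after birth. During the arrest they lay down DNA methylation anew, with DNMT3A, DNMT3L and the piRNA pathway directing it to transposons and imprinted loci. After birth they re-enter the cell cycle and give rise to spermatogonia, among them the stem cells. An ATAC-seq peak marks DNA that the transposase could reach, such as an active promoter or enhancer, and does not by itself report transcription.

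A handful of promoters shows what a lost or gained gene-end peak covered. They belong to the listed genes with a RefSeq promoter window of 300 bases, from 250 before to 50 after the gene start, that lay wholly inside the lost or gained peak. The 250 bases before the start are given 5′ to 3′ on the gene's strand, in assembly GRCm38.p6. Capitals mark a GC box (GGGCGG) or a CCAAT box (CCAAT) on either strand. The lost peaks covered *Mycn* (chr12:12941837-12942086, minus strand), which encodes a growth-promoting transcription factor, *Lhx1* (chr11:84525535-84525784, minus strand), a LIM homeobox factor of spermatogonial stem cells, and *Dusp6* (chr10:99262981-99263230, plus strand), a phosphatase that restrains ERK signalling. The gained peaks covered *Acta2* (chr19:34255374-34255623, minus strand), the actin of smooth muscle and peritubular myoid cells, and *Id3* (chr4:136143572-136143821, plus strand), an inhibitor of basic helix-loop-helix factors that responds to BMP signals.
*Mycn*: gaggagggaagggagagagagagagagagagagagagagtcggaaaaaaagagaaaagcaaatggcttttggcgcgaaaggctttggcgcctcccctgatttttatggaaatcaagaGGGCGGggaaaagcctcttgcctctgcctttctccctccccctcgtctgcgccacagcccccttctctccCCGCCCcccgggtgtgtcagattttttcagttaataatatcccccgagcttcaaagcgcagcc
*Lhx1*: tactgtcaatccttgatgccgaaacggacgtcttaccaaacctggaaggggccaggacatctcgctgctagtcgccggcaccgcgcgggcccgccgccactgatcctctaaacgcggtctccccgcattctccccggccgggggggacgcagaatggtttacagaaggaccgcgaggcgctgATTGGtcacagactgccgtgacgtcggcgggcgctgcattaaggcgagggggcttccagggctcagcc
*Dusp6*: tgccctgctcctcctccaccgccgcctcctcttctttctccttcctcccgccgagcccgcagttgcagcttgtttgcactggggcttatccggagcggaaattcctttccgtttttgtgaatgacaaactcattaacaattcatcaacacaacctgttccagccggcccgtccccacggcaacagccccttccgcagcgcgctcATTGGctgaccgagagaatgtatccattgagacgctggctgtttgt
*Acta2*: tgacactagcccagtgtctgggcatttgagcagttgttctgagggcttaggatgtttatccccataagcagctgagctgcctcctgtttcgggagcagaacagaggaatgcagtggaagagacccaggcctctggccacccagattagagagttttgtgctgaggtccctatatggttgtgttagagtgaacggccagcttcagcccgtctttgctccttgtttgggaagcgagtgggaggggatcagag
*Id3*: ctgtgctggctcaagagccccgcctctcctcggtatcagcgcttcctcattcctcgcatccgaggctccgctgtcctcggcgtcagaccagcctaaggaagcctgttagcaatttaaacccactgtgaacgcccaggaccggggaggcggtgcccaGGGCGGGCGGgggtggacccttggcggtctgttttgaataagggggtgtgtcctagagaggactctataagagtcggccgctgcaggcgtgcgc
The lost *Mycn* and the gained *Id3* promoter each held a pair of GC boxes, which overlap in *Id3*. The lost *Lhx1* and *Dusp6* promoters each held 1 CCAAT box on the opposite strand. The gained *Acta2* promoter held neither. A match is a description of letters, not of binding.

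Between the lists, losses were the smaller change. Of the 53687 E16.5 peaks, 22% were lost (interval 21.7 to 22.4), and of the 67258 P0 peaks, 37.7% were gained (interval 37.4 to 38.1). Every kept region joined 1 peak of each list, so the excess of gained over lost regions equals the difference in list length, which depends on depth and calling threshold. The *Morc1* (-/-) list of E16.5, made from other samples of the same stage, gives a yardstick. Of the E16.5 *Morc1* (+/-) peaks, 18.6% had no counterpart there, nearly the share that had none at P0. In the other direction, 23.5% of the *Morc1* (-/-) peaks had no counterpart in the *Morc1* (+/-) list, beside the 37.7% gained at P0. Lost peaks present in both E16.5 lists numbered 6369, which is 14.6% of the 43678 *Morc1* (+/-) peaks found in both. Gained peaks absent from both E16.5 lists numbered 18740, or 27.9% of the P0 list.

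Few calls hung on the 1 bp threshold. Kept pairs overlapped by a median of 460 bp of their 501 bp, with centres a median of 41 bp apart. Just inside the threshold, 150 kept pairs overlapped by 50 bp or less. Just outside it, 125 lost peaks lay within 50 bp of a P0 peak, and 125 gained peaks lay within 50 bp of an E16.5 peak. The median gap to the nearest peak of the other stage was 10246 bp for lost and 15714 bp for gained peaks.

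Lost and gained peaks both lay mostly away from gene ends, but in different places. A gene end here reaches 1000 bp to both sides of either outer bound of a RefSeq gene, so it takes in starts and 3′ ends alike, and exons and introns were not told apart. Of lost peaks, 12.8% lay at a gene end (interval 12.2 to 13.4), compared with 34.3% of kept peaks (interval 33.8 to 34.7) and 14.7% of gained peaks (interval 14.3 to 15.2). Elsewhere within genes lay 40.2% of lost peaks (interval 39.3 to 41.0), compared with 23.5% of kept and 25.9% of gained peaks. Between genes lay 59.4% of gained peaks (15075 of 25383), compared with 47.0% of lost peaks (interval 46.1 to 47.9) and 42.3% of kept peaks. The lost set was thus marked by gene bodies and the gained set by DNA between genes. With protein-coding genes alone, the gene-end shares were 7.05% of lost, 27.4% of kept and 6.18% of gained peaks, so the order of lost and gained at gene ends reversed.

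**Figure D1:**
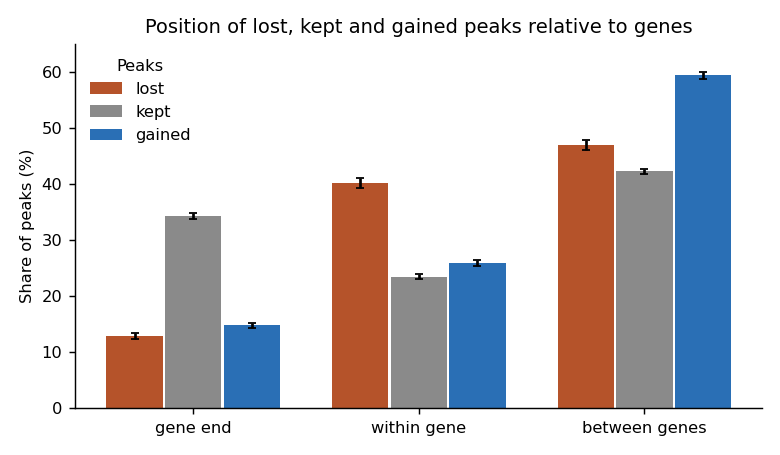
Share of lost (orange), kept (grey) and gained (blue) peaks at gene ends, within genes and between genes, in percent of each set, with 95% Wilson intervals. Kept peaks lead at gene ends (34.3%), lost peaks within genes (40.2%) and gained peaks between genes (59.4%).

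Taken by place, 9.54% of E16.5 peaks at gene ends were lost, 32.6% of those within genes and 23.9% of those between genes. Of P0 peaks, 20.7% of those at gene ends were gained, 40.1% of those within genes and 46.0% of those between genes. Within 0.5 kb of an outer gene end, 6.74% of E16.5 peaks were lost and 17.0% of P0 peaks were gained. At 5 to 10 kb these shares were 28.8% and 45.3%. Farther out the lost share went down to 23.4% at 100 to 500 kb, while the gained share stayed at 44.4%. The median distance to an outer gene end was 14.6 kb for lost, 6.89 kb for kept and 15.6 kb for gained peaks. Change was thus least common near the outer ends of genes, whereas loss was most common elsewhere within genes.

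**Figure D2:**
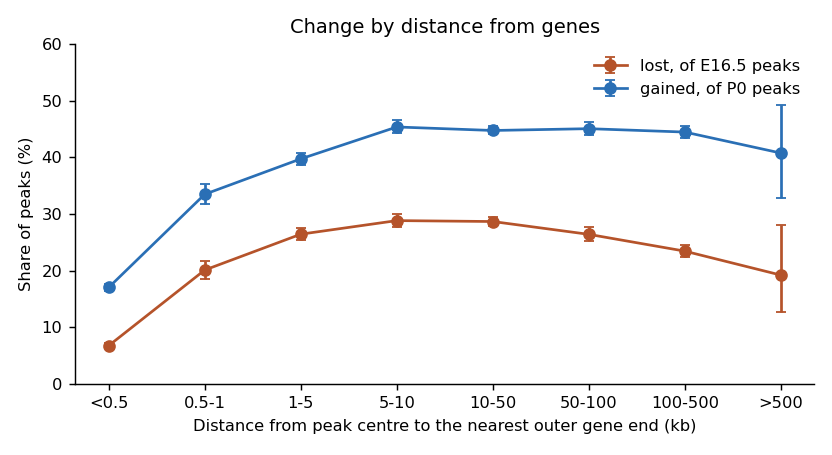
Share of E16.5 peaks lost (orange) and of P0 peaks gained (blue), in percent with 95% Wilson intervals, by distance in kb from the peak centre to the nearest outer gene end. Both shares are lowest within 0.5 kb (6.74% and 17.0%). The widest intervals belong to the small numbers of peaks beyond 500 kb.

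The remaining 4 lists, which took no part in the definition of the sets, showed how lasting each set was. Kept peaks were the most widespread: 48.6% were present in *Morc1* (+/-) cells at E13.5 and 72.9% at P3. Lost peaks were present in 22.0% of cases at E13.5 and in 14.0% at P3. Gained peaks were present in 10.3% of cases at E13.5 and in 27.4% at P3. In the E16.5 *Morc1* (-/-) list, 53.9% of lost, 89.1% of kept and 26.2% of gained peaks were found. Of the lost peaks, 5443 were thus missing from the other E16.5 list, and 6643 of the gained peaks were already open there.

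**Figure D3:**
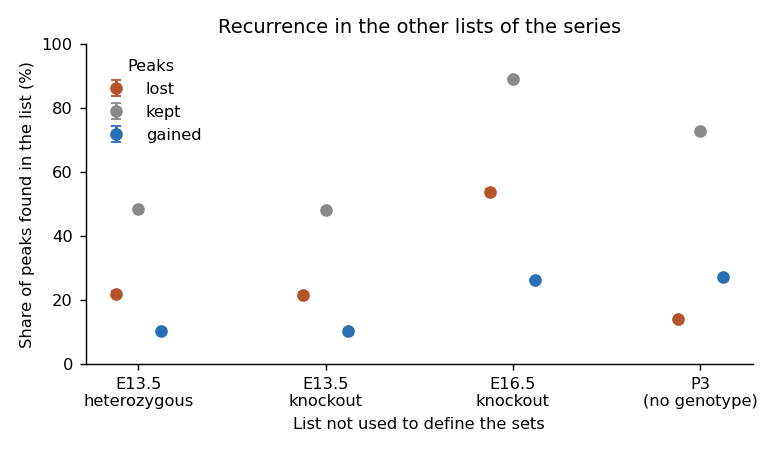
Share of lost (orange), kept (grey) and gained (blue) peaks, in percent, overlapped by a peak in each of the 4 lists that did not define the sets. The 95% Wilson intervals are smaller than the points. Kept peaks lead in all 4 lists, and gained peaks exceed lost peaks in the P3 list alone (27.4% against 14.0%).

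Followed through all stages, 71.3% of lost peaks were found neither in *Morc1* (+/-) cells at E13.5 nor at P3. A further 14.7% were present at E13.5 and absent at P3, and 7.34% were present at both, so that they were missing at P0 alone. Of gained peaks, 68.7% were found at neither stage and 21.0% at P3 alone. Of kept peaks, 44.9% were found at both. At gene ends 34.7% of gained peaks were found at P3, compared with 24.6% between genes. Kept peaks had the same order, with 89.4% and 61.4%, as did lost peaks, with 24.2% and 12.5%. Gained peaks absent from both E16.5 lists were found at P3 in 21.5% of cases, and those already open in the *Morc1* (-/-) list in 43.9%.

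Chromosomes differed in the balance of gain and loss, in a breakdown chosen after the values were seen. On chromosome 11, 241 of 1788 E16.5 peaks were lost and 48.0% of P0 peaks were gained (interval 46.2 to 49.8). Chromosomes 15, 18, 19 and X resembled it, with 15.0%, 16.8%, 14.3% and 17.5% lost and 45.7%, 50.2%, 47.5% and 46.5% gained. Chromosome 14 stood at the other end, with 26.9% lost and 31.0% gained. Gained peaks outnumbered lost peaks 5.93 to 1 on chromosome 11 and 1.22 to 1 on chromosome 14. The E16.5 *Morc1* (+/-) list itself was sparse on chromosome 11, with 14.7 peaks per Mb, compared with 17.3 in the *Morc1* (-/-) list, 19.3 in *Morc1* (+/-) cells at E13.5 and 24.4 at P0. With the *Morc1* (-/-) list as the E16.5 side, the gained share of chromosome 11 was 39.8%. The part of that list's sparseness in the result was not tested.

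**Figure D4:**
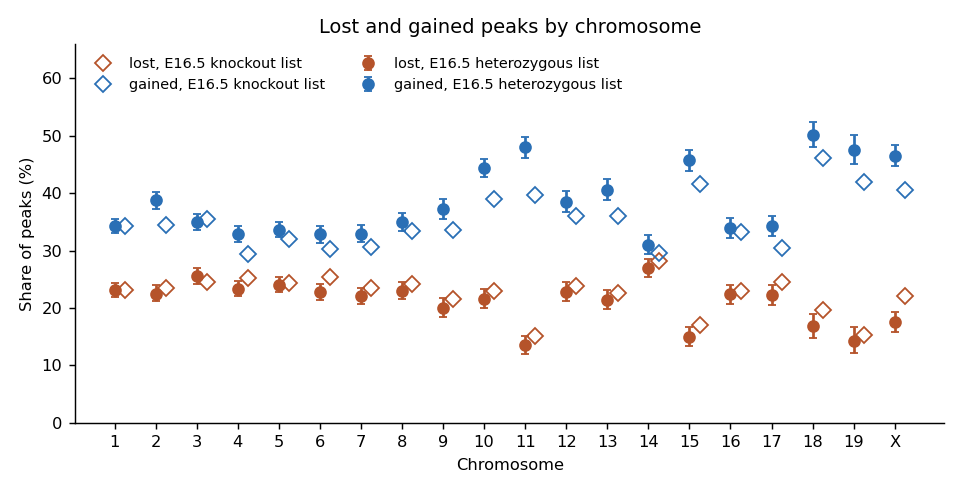
Share of E16.5 peaks lost (orange) and of P0 peaks gained (blue) on each chromosome, in percent, with 95% Wilson intervals. Filled circles use the E16.5 heterozygous list and open diamonds the E16.5 knockout list in its place, and Y, with 15 E16.5 peaks, is left out. Chromosomes 11, 15, 18, 19 and X combine few losses with many gains.

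Gene-poor DNA gained most. In 1 Mb windows with at most 1 protein-coding gene, 43.0% of P0 peaks were gained, and in windows with 20 or more, 29.6%. The lost share was greatest in windows of 2 to 4 genes (25.2%) and least in windows of 20 or more (16.4%). This breakdown was also chosen after values were seen.

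Next, genes were sorted by the peaks at their ends. Of 21887 protein-coding genes, 12665 (57.9%) had a gene-end peak at both stages, 465 (2.12%) had one at E16.5 only, 1134 (5.18%) at P0 only, and 7623 (34.8%) at neither. Over all 49943 annotated genes, 1079 (2.16%) lost and 3252 (6.51%) gained such a peak. Long non-coding RNA genes lost in 2.88% and gained in 8.61% of cases, and pseudogenes in 1.37% and 8.07%. For 38 of the 465 and 51 of the 1134 protein-coding genes, the peak itself was kept and only its counterpart fell outside the window. Of the 465 genes, 62.8% also had a gene-end peak in the E16.5 *Morc1* (-/-) list and 27.3% at P3. Of the 1134 genes, 36.9% already had one in that E16.5 list, and 41.2% had one at P3.

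The base composition of promoters followed these states. Over 32851 RefSeq promoter windows of 300 bases (none from chromosome 18), 11827 met a peak at both stages, 810 at E16.5 only, 1395 at P0 only and 18819 at neither. The median GC content was 62.7% in kept, 58.3% in lost, 55.0% in gained and 47.7% in unmet windows. The median count of CpG dinucleotides was 22, 14, 10 and 3 in the same order. A CpG ratio (observed over expected) of at least 0.6 was found in 76.3% of kept, 48.5% of lost, 33.9% of gained and 9.95% of unmet windows. Promoters open at one stage only were thus poorer in CpG than those open at both, and gained ones poorer than lost ones.

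Motifs were counted on both strands of the 300 bases. The GC box (GGGCGG) stood in 69.2% of kept, 48.6% of lost and 40.7% of gained windows, and in 35.7% of all windows. The CCAAT box stood in 39.7%, 31.0% and 31.2%, and in 37.4% of all. The ETS motif CCGGAAGT stood in 8.69%, 2.72% and 3.87%, and in 3.89% of all. The NRF1 motif was present in 2.33%, 0.617% and 0.502%, and in 0.971% of all, and the cyclic AMP response element TGACGTCA in 3.60%, 1.36% and 0.789%, and in 1.79% of all. The E-box CACGTG was present in 10.9%, 9.01% and 7.60%, and in 7.15% of all. Letters common in CpG-rich promoters were thus more frequent in kept windows. The TATA box (TATAAA) had the opposite order, with 5.50% of kept, 7.90% of lost and 10.7% of gained windows, and 13.6% of all. The AP-1 site TGACTCA stood in 2.74%, 4.69% and 4.87%, and in 5.20% of all. The octamer ATGCAAAT, the site of POU factors such as OCT4, stood in 1.42%, 0.988% and 2.29%, and in 1.74% of all.

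A total of 16 lists of genes with roles in gonocytes and the testis, 275 genes in all, were then read. At their ends 196 kept, 8 lost and 16 gained a peak, and 55 had none at either stage. The lost share was 2.91%, against the 2.12% of protein-coding genes, and the gained share 5.82%, against 5.18%, so neither share stood far from the background. Of the 8 lost genes, 6 had a gene-end peak in the E16.5 *Morc1* (-/-) list. Of the 16 gained genes, 5 had one there, and 8 had one at P3.

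The marker lists were read beside all protein-coding genes, of which 57.9% had a gene-end peak at both stages and 5.18% at P0 only. Of 10 germ cell identity genes, 7 had a gene-end peak at both stages. None was listed at either stage for *Nanos2*, *Nanos3* and *Tdrd1*, an RNA-binding regulator of male fate, an RNA-binding regulator of germ cell survival and a piRNA pathway protein. Of 12 Sertoli cell genes, 7 had a peak at both stages (*Wt1*, *Dhh*, *Fshr*, *Cldn11*, *Sox8*, *Clu* and *Aard*), a share like the 57.9% of all protein-coding genes. None was listed for the other 5, *Sox9*, *Amh*, *Inha*, *Nr5a1* and *Gata4*. Of 10 Leydig and interstitial genes, 5 had one at both stages (*Cyp11a1*, *Lhcgr* and *Nr2f2* among them), and *Star*, *Insl3*, *Cyp17a1*, *Hsd3b1* and *Pdgfra* had none. Of 10 peritubular, endothelial and immune genes, 2 had a peak at both stages (*Myh11* and *Kdr*) and 2 at P0 only: *Acta2* and *Cd3e*, a chain of the T cell receptor complex. A gene-end peak records open DNA only, so these counts cannot give the share of other cells, and their part in the results was not tested.

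The genes that silence transposons and set up methylation changed little at their ends. So did protein-coding genes as a whole, of which 2.12% lost and 5.18% gained a gene-end peak. Among 25 piRNA pathway genes, 20 kept their peak, 4 had none, and *Tdrd7*, which encodes a Tudor-domain protein of the germ granules, gained one (chr4:45965665-45966165) that was in no other list. Among 16 genes of DNA methylation and demethylation, 14 kept theirs. *Dnmt3l*, the cofactor of de novo methylation, counted as lost, yet its E16.5 peak (chr10:78043209-78043709) was itself kept, since the overlapping P0 peak fell just outside the window. *Dnmt3a* had no gene-end peak at either stage. *Tet2*, which oxidises methylcytosine, kept 2 of its assigned peaks and gained 6, of which 5 were absent from the other E16.5 list and 4 were found at P3. Among 18 genes of H3K9 methylation and heterochromatin, 17 kept their gene-end peak. The exception, *Kdm4c*, an H3K9 demethylase, had none at its ends but lost 10, kept 16 and gained 10 peaks assigned to it as the nearest protein-coding gene.

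The MYC genes *Myc* and *Mycn* stood apart among the 30 genes of cell cycle arrest and re-entry, of which 24 kept their gene-end peak and none gained one. The 2 lost gene-end peaks make 6.67% of the list, against 2.12% of protein-coding genes, of which 5.18% gained one. *Myc* (gene ID 17869), a driver of growth and division, had a peak at its lower end (chr15:61985177-61985677) in both E13.5 lists, in both E16.5 lists and at P3, and none at P0. The peak at the start of *Mycn* (chr12:12941691-12942191) was in both E13.5 and both E16.5 lists and was missing at P0 and P3. Around *Myc*, 13 gained peaks lay between 24803 and 803615 bp from the gene. None of the 13 was in the E16.5 *Morc1* (-/-) list, and 2 were found at P3. *Ccnd2*, a D-type cyclin, lost 4 peaks, kept 2 and gained none, and 3 of the 4 were also in the other E16.5 list. *Cdk6*, its kinase partner, lost 5 peaks inside the gene, kept 7 and gained 5. *Mki67*, a proliferation marker, lost none, kept 5 and gained 5, of which 4 were found at P3.

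A similar course to that of *Myc* was seen at *Dusp6* among the 31 genes of WNT, BMP, FGF, retinoic acid and GDNF signalling. Its start-site peak (chr10:99262910-99263410) was in every list but that of P0, while 12 peaks lying 11935 to 207439 bp beyond its upper end were gained, 9 of them absent from the other E16.5 list. *Gdnf*, the stem cell niche factor, lost the peak near its start (chr15:7810281-7810781), which was in both E16.5 lists and absent at P3. *Id3* gained its start-site peak (chr4:136143567-136144067), which was in no E13.5 or E16.5 list and was found at P3. *Pdgfrb*, a platelet-derived growth factor receptor, also gained a gene-end peak, which the E16.5 *Morc1* (-/-) list already had. Its relative *Pdgfra* lost 7 peaks, kept 4 and gained none, with 2 of the 7 in the other E16.5 list. Over the whole list, 20 genes kept a gene-end peak, 2 lost one, 2 gained one and 7 had none. The lost and gained shares were 6.45% each, against 2.12% and 5.18% of protein-coding genes. The BMP ligand genes *Bmp4* and *Bmp7* were assigned 3 and 1 lost, 8 and 6 kept and 5 and 5 gained peaks.

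Pluripotency and primordial germ cell genes included 4 that gained a gene-end peak among 20, with 10 kept, none lost and 6 without any. That is 20% gained, against 5.18% of protein-coding genes. The 4 were *Dppa2* and *Dppa4*, neighbouring genes for chromatin proteins of pluripotent cells, *Dppa3*, which encodes STELLA, and *Tdgf1*, which encodes the Nodal co-receptor CRIPTO. None of the 4 had a gene-end peak in the E16.5 *Morc1* (-/-) list. The peak of *Dppa2* (chr16:48310511-48311011) and that of *Tdgf1* (chr9:110946552-110947052) were found at P3, that of *Dppa3* (chr6:122626198-122626698) was in the E13.5 *Morc1* (+/-) list, and that of *Dppa4* (chr16:48283356-48283856) was in no other list. *Sox2*, a pluripotency factor, had the opposite balance, with 9 lost, 11 kept and 3 gained peaks. Of its 9 lost peaks, 7 were in the other E16.5 list and none was found at P3. *Prdm1*, which encodes the germ cell specification factor BLIMP1, lost 5, kept 6 and gained 2, and 4 of the 5 were in the other E16.5 list. *Prdm14*, which acts with it, lost none, kept 1 and gained 5, none of them found at P3. The gene-end gains and the losses around *Sox2* and *Prdm1* thus lay in the same list of genes.

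**Figure D5:**
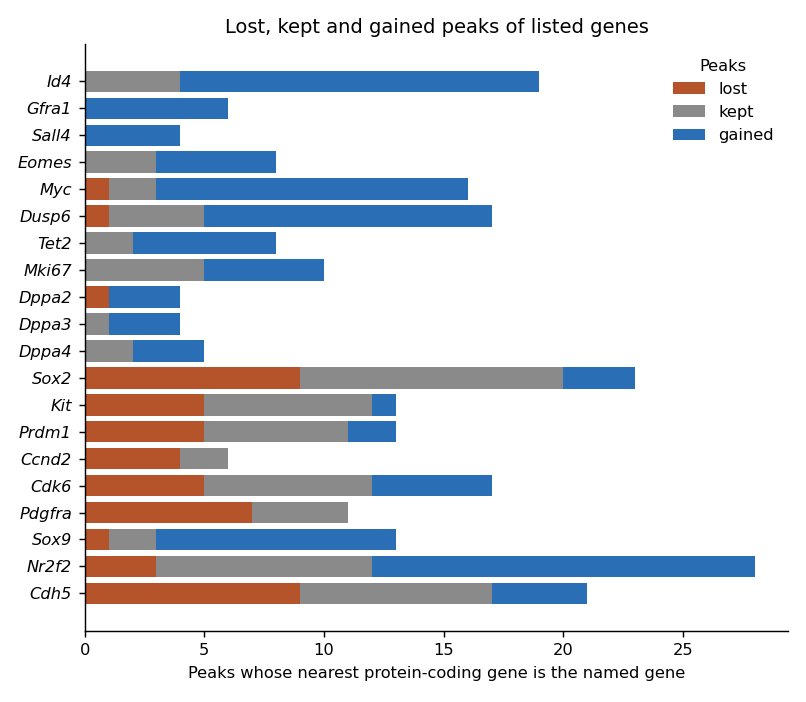
Numbers of lost (orange), kept (grey) and gained (blue) peaks whose nearest protein-coding gene is the named one, for 20 listed genes. *Id4*, *Myc* and *Dusp6* are mostly gained, *Gfra1* and *Sall4* wholly gained, and *Sox2*, *Kit*, *Prdm1*, *Ccnd2* and *Pdgfra* show more lost than gained peaks.

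Genes of male fetal fate and Nodal signalling numbered 16, of which 8 kept a gene-end peak, 6 had none and 2 gained one. The 2 gained make 12.5%, against 5.18% of protein-coding genes. Beside *Tdgf1* the gained gene was *Nodal*, the ligand itself, whose start-site peak (chr10:61417950-61418450) was already in both E13.5 lists and in the E16.5 *Morc1* (-/-) list, and was absent at P3. *Cyp26b1*, which degrades retinoic acid and so keeps meiosis from starting in the fetal testis, lost all 3 of its peaks and gained 1. None of the 3 was in the other E16.5 list, and 1 was found at P3. *Acvr2a*, an activin receptor gene, was assigned 11 lost, 31 kept and 12 gained peaks, with 7 of the 11 in the other E16.5 list.

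Around stem cell genes the gained share was above that of the whole P0 list. The 24 genes of spermatogonial stem cell self-renewal were assigned 16 lost, 46 kept and 58 gained peaks. Of their P0 peaks 55.8% were gained, against 37.7% of all P0 peaks and 46.0% of those between genes. *Id4* alone supplied 15 of the 58, and the 12 Sertoli cell genes had a gained share of 56.9%. *Id4*, an inhibitor of differentiation that marks the stem cells, lost none, kept 4 and gained 15. Of its 15 gained peaks, 11 were absent from the other E16.5 list and 6 were found at P3, and the nearest lay 5857 bp below the gene (chr13:48254758-48255258). *Gfra1*, the GDNF receptor of these cells, was assigned no peak of the E16.5 *Morc1* (+/-) list and gained 6, of which 3 were in the E16.5 *Morc1* (-/-) list and none was found at P3. *Eomes*, a T-box factor, kept 3 and gained 5, and 3 of the 5 were found at P3. *Foxo1*, a forkhead factor of gonocytes and stem cells, lost 5, kept 6 and gained 4. *Thy1*, a surface protein used to enrich the stem cells, lost 3, kept 1 and gained none, and all 3 were in the other E16.5 list.

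At the ends of these 24 genes, 15 peaks were kept, *Sall4* and *Bcl6b* gained one and *Lhx1* and *Sox3* lost one. Gained and lost shares were 8.33% each, against 5.18% and 2.12% of protein-coding genes. *Sall4*, a zinc finger factor of stem and differentiating spermatogonia, had no peak in the E16.5 *Morc1* (+/-) list and 4 at P0, all 4 of which were found at P3. The peak at its upper end (chr2:168766892-168767392) was in every other list of the series, both E13.5 lists and the E16.5 *Morc1* (-/-) list included, so the *Morc1* (+/-) list of E16.5 alone lacked it. *Bcl6b*, a GDNF-responsive repressor, gained a peak (chr11:70230408-70230908) that was in both E13.5 lists and absent from the other E16.5 list and at P3. The lost peak of *Lhx1* (chr11:84525316-84525816) was in no other list, although both E13.5 lists had a different peak at an end of the gene. The lost peak of *Sox3* (chrX:60893381-60893881) was in both E16.5 lists only, although the E13.5 *Morc1* (+/-) list had a different one at an end of the gene.

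Among 15 genes of spermatogonial differentiation, 9 kept a gene-end peak. A gain was seen at 20% and a loss at 6.67%, against 5.18% and 2.12% of protein-coding genes. Beside *Sall4*, the gained genes were *Neurog3*, a marker of committed progenitors (chr10:62133844-62134344), and *Rara*, a retinoic acid receptor (chr11:98927728-98928228). The peaks of *Neurog3* and *Rara* were in no other list. *Dmrtb1*, which controls the exit from mitosis into meiosis, lost a gene-end peak (chr4:107704080-107704580) that was in no other list either. *Kit*, the receptor of differentiating spermatogonia, lost 5, kept 7 and gained 1, with 3 of the 5 in the other E16.5 list, whereas the gene of its ligand, *Kitl*, lost none, kept 6 and gained 7. Receptor and ligand genes thus had opposite balances. Among 29 meiosis genes, 26 kept a gene-end peak, none changed and 3 had none. Their peaks numbered 1 lost, 32 kept and 21 gained, with *Mei4*, which is needed for meiotic recombination breaks, at 3 kept and 7 gained and *Ythdc2*, an RNA-binding helicase of meiotic entry, at 1 kept and 5 gained.

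Of 18 adhesion and migration genes, 13 kept a gene-end peak, and *Ncam1*, a neural cell adhesion molecule, and *Adam2*, a sperm surface protein, gained one. That is 11.1% gained, against 5.18% of protein-coding genes. The gained peak of *Adam2* (chr14:66077354-66077854) was in the E16.5 *Morc1* (-/-) list and at P3. That of *Ncam1* (chr9:49502903-49503403) was in no other list. Different peaks lay at an end of the gene in both E13.5 lists, the E16.5 *Morc1* (-/-) list and the P3 list. *Cdh2*, which encodes N-cadherin, was assigned 7 lost, 32 kept and 39 gained peaks, 31 of the 39 absent from the other E16.5 list. *Itgav*, an integrin subunit, lost 3 within the gene, kept 3 and gained none. Of 12 widely expressed genes, 10 kept a gene-end peak and 2 had none, with 2 lost, 16 kept and 4 gained peaks.

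Among genes of other testis cells, the 12 Sertoli cell genes were assigned 4 lost, 22 kept and 29 gained peaks, while none of their gene ends changed state. The gained share was 56.9%, against 37.7% of all P0 peaks and 46.0% of those between genes. *Sox9* and *Fshr* carried most of the 29. *Sox9*, the Sertoli cell determinant, had 1 lost, 2 kept and 10 gained, of which 6 were found at P3, and *Fshr*, the receptor of follicle-stimulating hormone, had 2, 3 and 9. *Nr2f2*, an interstitial cell factor, had 3, 9 and 16. *Cdh5*, the cadherin of endothelial cells, had 9, 8 and 4, with 6 of its 9 lost peaks in the other E16.5 list. Assignment went to the nearest protein-coding gene, so a peak assigned to a gene may lie far from it. For *Sox9* the distances of the gained peaks ran from 23201 to 462289 bp.

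Over all 275 listed genes, 83 (30.2%) had at least 2 gained peaks assigned to them, against 18.1% of protein-coding genes, and 35 (12.7%) had at least 2 lost peaks, against 9.75%. A peak was assigned to the nearest protein-coding gene, so genes with wide surroundings collect more. The choice of E16.5 list mattered most for such counts: with the *Morc1* (-/-) list, the lost count moved for 57 and the gained count for 35 of 143 named genes.

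The genes with most changed peaks were those with many peaks of any kind, and most of these peaks lay outside the bounds of the gene. *Pcdh9*, a protocadherin, was assigned 32 lost, 137 kept and 88 gained peaks, of which 4 lost and 12 gained lay inside the gene. That is 18.9% of its E16.5 peaks lost and 39.1% of its P0 peaks gained, against 22% and 37.7% over the whole lists. *Csmd3*, a large membrane protein, had 9, 78 and 87, with 37 of the gained inside and a gained share of 52.7%. *Pcdh7* had 50 lost, the highest count, 152 kept and 77 gained, shares of 24.8% lost and 33.6% gained. *Grik2*, a kainate receptor subunit, had 39, 118 and 50, and *Tenm3*, a teneurin, 33, 84 and 49. The other genes with most gained peaks were *Aga* (81), *Cdh9* (81), *Cdh8* (74), *Lrrc4c* (73), *Brinp3* (70), *Ncam2* (68) and *Pcdh10* (64), and those with most lost peaks *Pabpc4l* (33), *Pcdh20* (32), *Tmeff2* (29), *Gpc5* (28), *G6pd2* (28) and *Olfm4* (27). None of the 10 genes with most gained peaks lacked lost ones.

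Some genes were assigned peaks of 1 kind only. Of protein-coding genes with any assigned peak, 17575 in number, 1383 had gained peaks only, 405 lost peaks only and 7209 kept peaks only. Those with most peaks, all gained, were *Gm11677* (22), *Kif2b* (14), which encodes a kinesin, *Esp15* (12), a gland-secreted peptide gene, *Eno1b* (11) and *Ftmt* (9), which encodes mitochondrial ferritin. They were followed by *1700012B07Rik* (8), *Xirp2* (8), *Zfy2* (7), *Bmp5* (6) and *Cldn34b4* (6). In *Bmp5*, a bone morphogenetic protein gene, 4 of the 6 lay inside the gene, and all 6 were absent from the other E16.5 list. Peaks all lost were fewer per gene: *Accsl*, *Kcnk16* and *Slc20a2*, a phosphate transporter gene, lost 4 each. *Adgrf2*, *Ghrhr*, *P2rx3*, *Ptprj*, *Slc10a7* and *Wdr93* lost 3 each and *1700001J03Rik* 2. All 3 lost peaks of *Ptprj*, a receptor tyrosine phosphatase, lay inside the gene and in both E16.5 lists. At *Slc20a2*, *P2rx3*, *Ptprj*, *Slc10a7* and *Wdr93*, 5 of these 10 genes, a gene-end peak was nevertheless open at both stages, since a peak in the window can be nearer to another gene. Peaks all kept, with none gained, were most numerous at *Creb3l1* and *Selenop* (8 each).

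Gene families were counted by symbol prefix. The gained shares stand beside 37.7% of all P0 peaks and 46.0% of those between genes, and the lost shares beside 22% of all E16.5 peaks. The 53 keratin genes were assigned 2 lost, 10 kept and 37 gained peaks, a gained share of 78.7%, and 24 of the 53 (45.3%) gained a gene-end peak, against 5.18% of protein-coding genes. Of the 37 gained peaks, 29 were absent from the other E16.5 list. Part of the keratin genes lie on chromosome 11, where the E16.5 *Morc1* (+/-) list was sparse and 48.0% of P0 peaks were gained. Over the stretch with *Krt10* (chr11:99238308-100295711) that list had 0 peaks, the *Morc1* (-/-) list 10 and the E13.5 *Morc1* (+/-) list 8. The part of this sparseness in the keratin values was not tested. The 22 Pcdhb protocadherin genes had no lost, 6 kept and 15 gained peaks, a gained share of 71.4%, and 7 of them (31.8%) gained a gene-end peak. Of the 21 Pcdhg genes 12 (57.1%) did, but these genes share an outer end and so the same peak. Vomeronasal receptor genes of the Vmn2r family had 26 lost, 183 kept and 217 gained peaks, so that 54.3% of their P0 peaks were gained (interval 49.4 to 59.1). Olfactory receptor genes had 150, 558 and 469, and their gained share of 45.7% was close to that of all peaks between genes. The 39 Hox genes had 14 lost, 16 kept and 29 gained peaks, shares of 46.7% lost and 64.4% gained. Gene-end peaks were lost at 5 and gained at 3 of the 39, against 2.12% and 5.18% of protein-coding genes. Within the Hox genes the Hoxb cluster, singled out after its values were seen, had 2, 1 and 13. The 19 Sox genes had 33 lost, 69 kept and 45 gained peaks, shares of 32.4% lost and 39.5% gained. Of the 33 lost peaks, 24 were in both E16.5 lists. Gene-end peaks were lost at 4 of the 19 genes, against 2.12% of protein-coding genes, and gained at none. Zinc finger genes of the Zfp series had 160, 748 and 374, a gained share of 33.3%. Neighbouring family members share surroundings and are not independent.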

How the data were processed

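ATAC-seq was run by the authors on 16 samples of male germ cells in 8 groups of 2, per the labels' protocols. The deposited files are 8 peak lists, 1 per group, holding the peak coordinates (chromosome, start, end) and no score. Peaks are 501 bp wide but for 0 to 3 per list. The submitters' processing notes name mm10 and bcl2fastq 2.20, cutadapt 1.18, Bowtie2 2.3.4.1, deepTools 3.5.0 and HOMER 4.10, with no role. The peak caller, its threshold and any pooling of samples are not given in the sources used here. Fixed widths hide changes in breadth.

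Overlaps, distances and gene states were computed in Python 3.11.15 with pandas 2.3.3, numpy 2.4.6 and scipy 1.17.1, and drawn with matplotlib 3.10.9. Counts of lost and gained peaks equalled those of bedtools 2.31.1 (11812 and 25383). Tested on simulated data, 5000 of 5000 placed lost peaks and 8000 of 8000 placed gained peaks were found, in lists of 31844 and 34844 peaks. The placed peaks were kept clear of the others by the same overlap rule, so full recovery was fixed by the design. It checks the counting only and did not try the 1 bp threshold. Genes came from a RefSeq table of GRCm38.p6, in which all 275 listed symbols matched. Promoter windows and microRNAs are RefSeq's. Coordinates are 1-based. Nearest protein-coding gene bounds received each peak.

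Named genes were list members with a lost or gained gene-end peak or at least 2 lost or 2 gained peaks, the 10 genes with most gained and most lost peaks, and the 10 with most peaks all gained, all lost or all kept; families went by symbol prefix. The members and lists were chosen with earlier results of these data known. Each group was 1 list, so no test was made and intervals are 95% Wilson intervals. Alternatives were a reciprocal overlap of 50%, a gap of up to 500 bp, autosomes, the E16.5 knockout list, a 500 bp gene-end window and protein-coding genes only. Peak sequences and repeats were not analysed here.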

Additional observations from a re-analysis of the deposited data

How the results depend on the processing

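With 1 list per group and no score, leaving out a replicate and a stricter threshold could not be run, and sequencing depth, which limits peak calling, is unknown. No paired analysis was possible because no list carries a replicate number. Of 74 alternative values for 14 results, 28 stayed within the counting interval (for counts of genes, within 1.5 times) and 46 moved beyond it. The 28 include the counts of genes with a lost or gained gene-end peak under the reciprocal overlap and the joining within 500 bp. Those settings do not enter these counts, which therefore could not move. A reciprocal overlap of 50% gave 25.6% lost and 40.6% gained, gene-end shares of 15.0% (lost) and 15.7% (gained), 58.5% of gained peaks between genes, 25.4% of gained and 71.1% of kept peaks at P3, and 52.4% of lost and 25.6% of gained peaks in the E16.5 *Morc1* (-/-) list. Joining peaks within 500 bp gave 20.2% lost and 36.3% gained, gene-end shares of 11.1% and 14.0%, 28.5% and 73.7% at P3, and 27.0% of gained peaks in that list. Autosomes alone gave 37.3% gained, 58.5% of gained peaks between genes, and 28.5% and 73.6% at P3. The *Morc1* (-/-) list as the E16.5 side gave 23.2% lost and 34.8% gained, gene-end shares of 33.8% (kept) and 14.0% (gained), 60.7% of gained peaks between genes, 24.2% and 72.4% at P3, and 24.1% of lost peaks at E13.5. A 500 bp window gave gene-end shares of 9.50% (lost), 31.1% (kept) and 11.6% (gained), and 48.1% of lost and 60.5% of gained peaks between genes. Protein-coding genes alone gave 7.05%, 27.4% and 6.18% at gene ends, 57.4% of lost and 73.2% of gained peaks between genes, and 465 genes lost and 1134 gained. Requiring agreement of both E16.5 lists, chosen after seeing the data, gave 14.6% lost and 27.9% gained, 13.8% and 13.9% at gene ends, and 43.9% and 61.1% between genes. The gained share exceeded the lost share under each setting that gave both, but the P0 list was the longer one in each. That order therefore goes with list length, which depends on depth and calling threshold. The cause of these shifts was not tested.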

Other observations

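Gene-end peaks of microRNA genes, looked at after values were seen, changed at 76 of 1228 genes: 22 (1.79%) lost and 54 (4.40%) gained one, against 2.16% and 6.51% of all annotated genes. With the E16.5 *Morc1* (-/-) list in place of the *Morc1* (+/-) list, 11 of the 22 were lost and 44 of the 54 gained. One gained P0 peak (chr7:3218986-3219486) lay within 1000 bp of *Mir292*, *Mir292b*, *Mir291b* and *Mir293*, members of the miR-290 cluster of pluripotent and early germ cells, and no other list had a gene-end peak at these 4. The upstream members *Mir290a*, *Mir290b* and *Mir291a* had one in all 6 lists, and *Mir294* and *Mir295* in none. A gained peak at chr6:124718383-124718883 served *Mir141* and *Mir200c*, microRNAs of epithelial cells, of which *Mir200c* had a gene-end peak in both E13.5 lists as well. *Mir137*, best known from neurons, lost a peak (chr3:118434154-118434654) that was in both E16.5 lists. Mature sequences from RefSeq (GRCm38.p6), 5′ to 3′ with the seed (bases 2 to 8) in capitals, show that miR-292a-5p and miR-293-5p share a seed, while miR-141-3p and miR-200c-3p differ within theirs.
miR-292a-5p: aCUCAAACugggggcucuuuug
miR-293-5p: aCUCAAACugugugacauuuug
miR-291b-3p: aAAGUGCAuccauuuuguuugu
miR-141-3p: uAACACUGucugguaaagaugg
miR-200c-3p: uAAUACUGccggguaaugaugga
miR-137-3p: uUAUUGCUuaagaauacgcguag

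Gained peaks also came in long uninterrupted rows, counted after values were seen as consecutive P0 peaks that were all gained. The longest held 31 peaks over 1372.63 kb (chr11:111108123-112480755), in the gene desert beside *Sox9*, where the E16.5 *Morc1* (+/-) list had 1 peak, the *Morc1* (-/-) list 5 and P3 20. A row of 24 spanned the keratin cluster with *Krt10* (chr11:99238308-100295711), where the E16.5 lists had 0 and 10 peaks and P3 had 15. A further row of 24 surrounded *Kif2b* (chr11:90708352-92770845), with 0, 2 and 14 peaks in the same lists. In these rows, in the order given, the E13.5 *Morc1* (+/-) list had 4, 8 and 7 peaks, so some of this DNA was listed as open earlier. The rows named lie on chromosome 11, where the E16.5 *Morc1* (+/-) list was sparse, and the part of that sparseness was not tested. Rows of lost peaks were shorter, at most 10, across *Dab2ip* and *Ttll11* (chr2:35691615-35906847) and within the region of *Ptprn2* (chr12:116591948-116978563), where the *Morc1* (-/-) list had 7 and 8 peaks. Of 2558 windows of 1 Mb with a peak, 1855 had more gained than lost peaks and 572 more lost than gained. Of 2 windows with 41 gained peaks, the highest count, one with 1 lost held *Esp* pheromone genes on chromosome 17 and the other, with 4 lost, held *Vmn2r66* to *Vmn2r74* on chromosome 7. One with 40 gained and 3 lost held the limb and heart factors *Tbx3* and *Tbx5* on chromosome 5. The window with most lost peaks, 25 with 4 gained, held the potassium channel genes *Kcna2*, *Kcna3* and *Kcna10* on chromosome 3.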
